A study of Mus musculus with 2 samples.

Results

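The cells described here are the 1304 of 13045 cultured mouse aortic vascular smooth muscle cells (VSMCs) with the most RNA of Clu, Csf3, Hgf, Etv1, Peg10 and Vav3. For each cell, the unique molecular identifiers (UMIs, which count each captured RNA molecule once) of these 6 genes were scaled to 10000 UMIs per cell, log-transformed after adding 1 and summed, and the 10% of cells with the highest sum were taken. They are called Clu Csf3 Hgf cells below and were compared with all other cells. The cells were thus chosen by the measured RNA of these 6 genes in the same library, so every difference from the other cells is a description without a test.

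The cells came from 4 cultures: young VSMCs (12 weeks), old VSMCs (58 to 78 weeks), young VSMCs given 0.1 µM angiotensin II (AngII) over 48 h, and old VSMCs transfected with Piezo1 siRNA (siPiezo1) at a dose that the labels give as 20 nM and the study's text elsewhere as another value. All were commercial primary cells from aortas of C57BL/6 mice, used within few passages. The study lists several catalogue numbers from Creative Bioarrays and Cell Biologics. No engineered allele is named, and neither replicate cultures nor cell sources are told apart in the labels. Each culture was marked with a hashtag antibody and all were mixed into 1 droplet library, which held 115033686 gene UMIs in these cells, where the typical (median) cell had 7915 UMIs and 2884 genes. The labels do not pair hashtags with cultures, so values are given for tags 1 to 4 without a culture name.

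VSMCs in the wall of the aorta hold a contractile apparatus of smooth muscle actin, myosin and their partners, and in culture or after injury they can lose it while they divide, migrate and secrete matrix, proteases and cytokines. Clu encodes clusterin, a secreted chaperone. Csf3 encodes G-CSF, a cytokine that drives neutrophil production, and Hgf encodes hepatocyte growth factor, the ligand of the receptor Met. Etv1 is an ETS-family transcription factor, Peg10 is a paternally expressed imprinted gene derived from a retrotransposon, and Vav3 is a guanine nucleotide exchange factor, an activator of small GTPases. Serum response factor binds CArG boxes in many contractile gene promoters, and NF-kB and AP-1 sites are common in promoters of cytokine genes.

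The RefSeq table (GRCm38.p6) held promoters of Hgf, Etv1 and Vav3 among the 6 score genes, and of 12 of the 16 genes on the contractile list. The 250 bases before each start were searched on both strands for a CArG box, an NF-kB site and an AP-1 site. The CArG box was CC, 6 letters A or T and GG, and the AP-1 site was TGACTCA or TGAGTCA. Shown are those of Hgf and Vav3, which chose the cells, and of Myl9 (myosin regulatory light chain), a contractile gene low in them. Myl9 was taken because it was the only one of these 15 with a CArG box so defined. Looser forms were not counted, such as ccctatatgg in the window of Acta2. The window of Hgf lies at chr5:16553245-16553494, that of Vav3 at chr3:109340433-109340682 and that of Myl9 at chr2:156775214-156775463, all on the plus strand, and capitals mark the matches.
Hgf: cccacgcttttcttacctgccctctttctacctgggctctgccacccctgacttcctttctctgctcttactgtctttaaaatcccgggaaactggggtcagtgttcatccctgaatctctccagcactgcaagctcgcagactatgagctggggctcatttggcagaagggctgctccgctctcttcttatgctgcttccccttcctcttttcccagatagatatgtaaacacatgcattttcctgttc
Vav3: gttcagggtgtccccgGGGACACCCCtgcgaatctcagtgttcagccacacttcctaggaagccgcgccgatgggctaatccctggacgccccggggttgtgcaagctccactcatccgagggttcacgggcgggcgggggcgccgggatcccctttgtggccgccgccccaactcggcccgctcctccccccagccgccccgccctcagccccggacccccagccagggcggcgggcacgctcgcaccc
Myl9: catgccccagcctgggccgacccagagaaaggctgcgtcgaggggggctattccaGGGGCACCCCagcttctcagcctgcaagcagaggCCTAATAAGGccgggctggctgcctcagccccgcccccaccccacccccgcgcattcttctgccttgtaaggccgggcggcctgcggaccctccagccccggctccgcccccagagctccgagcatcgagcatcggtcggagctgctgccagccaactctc
The capitals in Vav3 are an NF-kB site whose first base lies 234 bases before the start. In Myl9 they are an NF-kB site at 195 and a CArG box at 161 bases before the start. Among the other contractile promoters, Mylk held an AP-1 site at 64 and Des an NF-kB site at 196 bases before the start. Hgf and Etv1 held none of the 3 motifs in these letters. Of all 32851 promoters in the table, 1.47% held the CArG box, 7.25% the NF-kB site and 4.46% the AP-1 site. These matches are letters in a window, and nothing on binding was measured.

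The score had no gap at its limit. The lowest score inside was 3.44316 and the highest outside 3.44285, while the highest of all was 9.91, and 613 cells lay within 10% of the limit, 280 of them inside. The median score was 4.45 inside and 0.55 outside, and 5567 of the 13045 cells (42.7%) had a score of 0. Clu gave the largest term in 57.4% of the Clu Csf3 Hgf cells, Csf3 in 13.3%, Hgf in 13.2%, Vav3 in 7.13%, Peg10 in 5.75% and Etv1 in 3.22%. At least 3 of the 6 genes had a UMI in 83.2% of the Clu Csf3 Hgf cells and in 8.78% of the others, but all 6 were found together in only 45 cells inside and 1 outside. When cells of tag 4 were thinned to 5000 UMIs, Spearman's rho between any 2 of the 6 genes lay between 0.01 and 0.15 over 1399 cells of 1 library, with a median of 0.05. After thinning of all cells, each gene had a UMI in 36.7% to 74.0% of the class and in 6.44% to 16.5% of the others. Sparse counts can hold rho low, which was not tested, so these values do not say how closely the 6 genes are tied. The class is the top of a continuous sum.

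Levels below are counts per 1000000 UMIs (CPM), summed over a set of cells, and a ratio is the CPM of the Clu Csf3 Hgf cells over that of the other cells. Intervals are exact 95% intervals that cover counting error only. Clu was at 522 CPM in Clu Csf3 Hgf cells of tag 1, 820 in tag 2, 487 in tag 3, 522 in tag 4 and 679 in cells with no tag. In the other cells of the same classes Clu was at 28.9, 92.6, 21.2, 107 and 82.4 CPM. Clu among cells outside the class was thus several-fold lower in tags 1 and 3 than in tags 2 and 4. Csf3 in the other cells was likewise lowest in tags 1 and 3, at 10.7, 38.1, 6.99, 33.1 and 26.6 CPM, against 83.7, 164, 64.3, 142 and 167 CPM in the Clu Csf3 Hgf cells. Hgf was at 147, 86.6, 119, 174 and 185 CPM in the Clu Csf3 Hgf cells and at 12.3, 25.2, 14.0, 42.4 and 31.1 CPM in the others. Within tag 2 Hgf was lowest and Clu highest of all Clu Csf3 Hgf classes. As the sum of these genes chose the cells, no more is read from these levels.

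Etv1 lay between 82.6 and 107 CPM across the 5 classes of Clu Csf3 Hgf cells and between 8.76 and 29.1 CPM in the others. Peg10 lay between 112 and 184 CPM against 5.40 to 25.1 CPM, and Vav3 between 129 and 161 CPM against 11.8 to 52.8 CPM. For each of the 6 genes the ranges inside and outside the class did not overlap, as the choice of cells fixed. Barcodes with 1 to 100 UMIs, which hold mostly free RNA, gave 104 CPM of Clu, 36.3 of Csf3, 30.5 of Hgf, 20.5 of Etv1, 28.6 of Peg10 and 28.6 of Vav3. Over all cells outside the class the same genes were at 62.0, 20.9, 24.6, 19.4, 14.4 and 27.7 CPM, none above the near-empty level. That level gives the make-up of free RNA and not its amount in a cell. Near-empty barcodes held at most 100 UMIs each, while the median cell had 7915. How much of the UMIs outside the class was free RNA was not tested. The whole counting interval of the other cells lay above the near-empty level for Hgf, Etv1 and Vav3 in tag 4. It also did so for Etv1 and Vav3 in tag 2 and without a tag. Clu in tag 4, Csf3 in tag 2 and Hgf without a tag were above that level by less than their intervals.

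**Figure D1:**
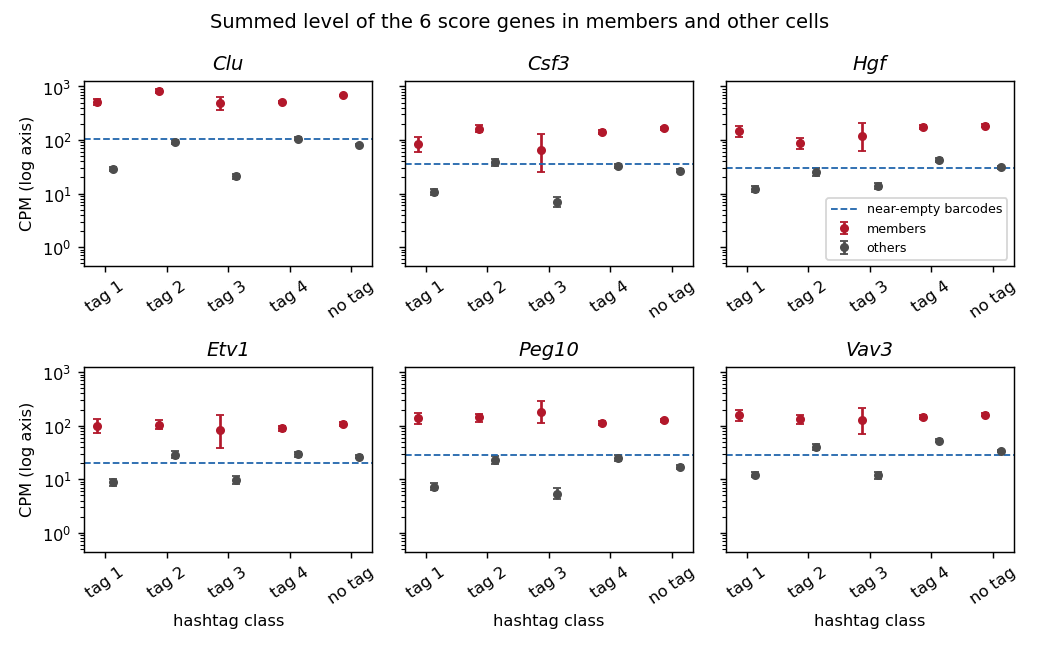
Summed level of each score gene (CPM, log axis) in Clu Csf3 Hgf cells (red) and other cells (grey) of each hashtag class, with exact 95% counting intervals; the dashed line is the level in near-empty barcodes. The other cells of tags 1 and 3 lie below the dashed line for all 6 genes, and the Clu Csf3 Hgf cells lie above it.

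Most Clu Csf3 Hgf cells carried tag 4, tag 2 or no tag at all. They made up 351 of 1512 cells of tag 4 (23.2%, Clopper-Pearson interval 21.1 to 25.4), 94 of 573 of tag 2 (16.4%, 13.5 to 19.7), 49 of 3117 of tag 1 (1.57%, 1.17 to 2.07) and 11 of 1468 of tag 3 (0.749%, 0.375 to 1.34). The intervals of tags 2 and 4 did not overlap those of tags 1 and 3. Relative to the 505 of 6670 cells with 1 tag that were in the class (7.57%), the shares were 3.07 times as high in tag 4, 2.17 times in tag 2, 0.208 times in tag 1 and 0.0990 times in tag 3. With another tag rule, given at the end, they were 5.87, 4.30, 0.447 and 0.188. Cells with no tag held 740 of 5307 (13.9%), which is 56.7% of all Clu Csf3 Hgf cells, and cells with several tags held 59 of 1068 (5.52%). The median of the highest tag was 42 UMIs in the class and 69 in the other cells, but 70 against 66 within tag 4, 71.5 against 72 within tag 2 and 33 against 34 without a tag, while the other cells of tag 1 had 371. The median ratio of the highest tag to the next was 2.25 inside and 2.21 outside the class in tag 4, and 2.29 and 2.38 in tag 2. In tag 1 it was 10.3 and 12.0. The median cell of tags 2 and 4 thus lay under the 3-fold margin of the other tag rule. How far cells of these 2 tags were mixed up was not tested. With 1 library and no told-apart replicate, a share per tag has no error between cultures. A difference between tags cannot be told apart from a difference between cell sources or between wells.

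**Figure D2:**
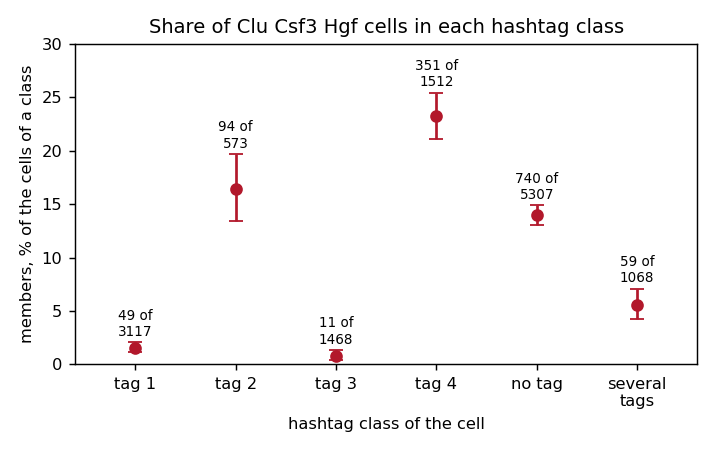
Share of Clu Csf3 Hgf cells in each hashtag class (% of its cells), with Clopper-Pearson 95% intervals and the counts above each point. Tag 4 stands at 23.2% and tag 2 at 16.4%, while tags 1 and 3 stay at 1.57% and 0.749%.

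The few Clu Csf3 Hgf cells of tags 1 and 3 were more often marked as likely doublets than those of tags 2 and 4. Scrublet, which scores likely doublets, marked 59.2% of those of tag 1 and 45.5% of those of tag 3, against 19.1% in tag 2, 13.7% in tag 4 and 9.86% without a tag. Every tag held cells with Xist RNA alone and cells with Y-linked RNA alone, so a droplet with both can hold a mixed pair. Whether the rarer kind under a tag was given the wrong tag was not tested. Both kinds were found together in 32.7% of the Clu Csf3 Hgf cells of tag 1, where 7.76% of all cells had both, and in 54.5% of those of tag 3. In tag 4 they were found together in 7.12% of the Clu Csf3 Hgf cells against 9.13% of all its cells. Xist alone was found in 40.8% of the Clu Csf3 Hgf cells of tag 1. Whether any of these cells were doublets was not tested. For most genes described, ratios are given within tags 2 and 4. Tag 3, with under 20 Clu Csf3 Hgf cells, was left out of the condition on direction within tags, but its cells are part of each value over all cells.

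Cells with Xist and no Y-linked UMI were more often in the class than cells with Y-linked and no Xist UMIs, at 852 of 4333 (19.7%, 18.5 to 20.9) against 196 of 4565 (4.29%, 3.72 to 4.92). The tags differed in these cells, since tags 1 and 3 held few with Xist alone (4.68% and 5.45%) and tags 2 and 4 many (60.2% and 66.9%). Within tag 1 the shares were 20 of 146 (13.7%, 8.57 to 20.4) and 9 of 1691 (0.532%, 0.244 to 1.01). Within tag 2 the shares were 57 of 345 (16.5%, 12.8 to 20.9) and 19 of 112 (17.0%, 10.5 to 25.2), with widely overlapping intervals. Within tag 4 they were 267 of 1011 (26.4%, 23.7 to 29.2) and 33 of 209 (15.8%, 11.1 to 21.5), which did not overlap. Xist itself stood at 722 CPM against 366 CPM over all cells and Ddx3y at 18.2 against 43.1 CPM. Whether sex of the source animals takes part in any result below was not tested.

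The median depth was 7709.5 UMIs and 2850 genes in the Clu Csf3 Hgf cells and 7952 UMIs and 2888 genes in the others, but it differed in opposite directions within tags, at 9515 against 6751.5 UMIs in tag 1, 9478 against 11005 in tag 2 and 9260 against 10054 in tag 4. The mitochondrial share of UMIs had a median of 2.05% against 1.24%, and within tag 4 of 2.08% against 1.79%. Over all cells 15.8% of the Clu Csf3 Hgf cells and 24.3% of the others were marked by Scrublet. Values with cells of at least 5000 UMIs, without cells above 10% mitochondrial UMIs and without the marked cells are given with the other settings at the end.

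The contractile genes were low in the Clu Csf3 Hgf cells, so the data did not go against the word low-contractile in their working name. A gene was called higher or lower at a ratio of at least 1.5 either way over all cells, with the same side of 1 within tags 1, 2 and 4, among the 8852 genes with 10 CPM or more inside or outside the class, score genes left out. A gene under 10 CPM on one side was thus tested only through the side where it was higher. By this rule 638 genes were higher (7.21% of those tested) and 409 were lower (4.62%). Of 9 contractile genes tested, 7 were lower and none higher, with a median log2 ratio of -1.75, against 0.03 over all genes tested. Within tags 1, 2 and 4 the median was smaller in size, at -1.03, -0.86 and -1.26. The summed level of the 16 contractile genes was 2955 CPM in the Clu Csf3 Hgf cells and 4710 CPM in the others, a ratio of 0.627 (0.620 to 0.635). The ratio was 0.708 in tag 1, 0.539 in tag 2, 0.697 in tag 4 and 0.566 without a tag, and 1.07 (0.983 to 1.16) in tag 3 with its 11 Clu Csf3 Hgf cells.

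Acta2, smooth muscle α-actin, stood at 128 CPM in the Clu Csf3 Hgf cells of tag 2 against 615 in the others, at 48.4 against 208 CPM in tag 4, at 182 against 376 CPM in tag 1 and at 75.6 against 431 CPM without a tag. Tagln, which encodes the actin-binding protein transgelin, was at 257 against 1062 CPM in tag 2 and at 108 against 507 CPM in tag 4. Both genes were lower by a factor of about 4 to 5 within either tag, with ratios of 0.209 (0.172 to 0.250) and 0.232 (0.197 to 0.272) for Acta2 and of 0.242 (0.212 to 0.275) and 0.213 (0.192 to 0.237) for Tagln. Near-empty barcodes held 393 CPM of Acta2 and 505 CPM of Tagln, above the level in the Clu Csf3 Hgf cells. The other cells of tags 1 and 4 were also below this level for Acta2, and those of tag 4 at about this level for Tagln. The other cells of tag 2 were above it for both. This level is the make-up of free RNA and not its amount in a cell. How much of the RNA in the low classes was free RNA was not tested. Thinned to 5000 UMIs, 15.1% (11.4 to 19.5) of the Clu Csf3 Hgf cells of tag 4 had an Acta2 UMI and 26.2% (23.6 to 29.0) of its other cells did, and without thinning 23.4% and 36.4%. These thinned shares left out 27 and 86 shallower cells. The part of free RNA in them was not tested, so they are not read as shares of cells expressing the gene. In tag 2 the thinned shares were 24.1% (15.6 to 34.5) and 49.1% (44.5 to 53.8).

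Myl9, whose promoter is shown above, was at 35.3 against 106 CPM in tag 2 and at 11.7 against 45.1 CPM in tag 4, ratios of 0.334 (0.228 to 0.475) and 0.260 (0.184 to 0.359). Cnn1 (calponin) was at 4.10 against 14.4 CPM in tag 4, and Lmod1 (leiomodin, an actin nucleator) at 3.81 against 9.13 CPM. More widely expressed actin partners had ratios nearer to 1. Cald1 (caldesmon) had a ratio of 0.601 (0.560 to 0.644) in tag 2 and 0.660 (0.631 to 0.690) in tag 4, and Tpm2 (β-tropomyosin) 0.551 and 0.682. Tpm1 (α-tropomyosin), the most abundant gene of the list, was at 1557 CPM in the Clu Csf3 Hgf cells and 1559 CPM in the others and lay on different sides of 1 between tags. Myh11, the smooth muscle myosin heavy chain that best marks mature VSMCs, was at 2.09 CPM inside and 4.65 CPM outside the class. Near-empty barcodes held 10.5 CPM, which does not give the amount of free RNA in a cell. This defining marker was under the 10 CPM needed for a call in both sets.

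**Figure D3:**
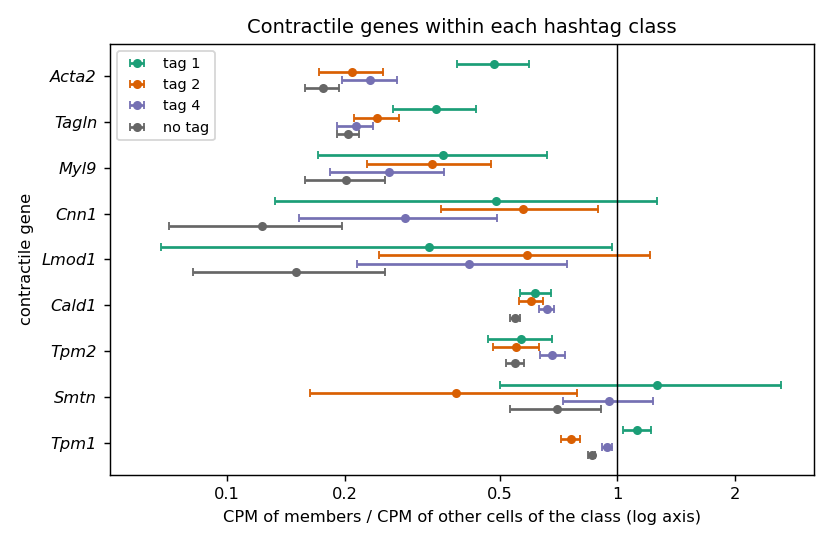
Ratio of the CPM of Clu Csf3 Hgf cells to that of the other cells (log axis) for the 9 contractile genes tested, within tags 1, 2 and 4 and in cells without a tag, with exact 95% counting intervals. Acta2, Tagln, Myl9, Cnn1, Lmod1, Cald1 and Tpm2 lie left of 1 in all 4 classes, while Smtn and Tpm1 lie on both sides.

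The word secretory held for some products and not for others. Among 88 tested genes on 5 lists of mostly secreted products, 15 were higher (17.0%) and 18 lower (20.5%). Over all genes tested the shares were 7.21% and 4.62%, and 55 of the 88 were neither. The 16 cytokine and chemokine genes tested gave none higher and 4 lower, with a median log2 ratio of -0.31 over all cells and of 0.14 in tag 4. Csf1, the growth factor of macrophages, was at 167 against 372 CPM in tag 2 and 177 against 314 CPM in tag 4. Ccl5, a chemokine for T cells, was at 9.63 against 32.0 CPM in tag 2 and 7.62 against 20.2 CPM in tag 4. The neutrophil chemokine Cxcl5 was called lower with a ratio of 0.204 (0.193 to 0.215) over all cells, which was below those of 0.272 in tag 1, 0.308 in tag 2 and 0.262 without a tag, while tag 4 gave 0.982 (0.884 to 1.09). Its level in the other cells was 1247 CPM in tag 1 and 136 CPM in tag 4, so the make-up of the tags entered the value over all cells. Ccl20 was also lower, with ratios of 0.529 over all cells, 0.684 (0.441 to 1.02) in tag 2 and 0.768 (0.612 to 0.954) in tag 4. Ccl2, the main monocyte chemokine and the most abundant of the list, had ratios of 1.24 in tag 2, 1.15 in tag 4 and 0.782 in tag 1 and was called neither. None of the cytokines and chemokines tested on the list was thus called higher. Csf3, which chose the cells, was not on this list and was left out of the calls.

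Growth factors divided, with 5 of 21 tested higher and 5 lower, against 7.21% and 4.62% over all genes tested. Angpt1, the ligand of the endothelial receptor Tie2, was at 85.6 against 22.1 CPM in tag 2 and at 75.6 against 28.7 CPM in tag 4, ratios of 3.87 (2.88 to 5.17) and 2.63 (2.23 to 3.10). Areg, an EGF receptor ligand, was at 101 against 30.6 CPM in tag 2 and at 48.4 against 24.3 CPM in tag 4. These were the largest ratios on the list that exceeded 1.5 in both tags. Fgf7 and Fgf10, both ligands of an epithelial FGF receptor, had ratios of 1.55 (1.41 to 1.69) and 1.87 (1.55 to 2.26) in tag 2 and of 1.34 (1.27 to 1.40) and 1.51 (1.37 to 1.67) in tag 4. Fgf7, at 1.52 over all cells, fell just short of 1.5 in 3 other settings, with a lowest ratio of 1.46. Like Hgf, both are mesenchymal factors known to act on epithelium. Bmp2, also called higher, had a ratio of 2.90 in tag 2 but of 1.06 (0.859 to 1.31) in tag 4. On the lower side, Ccn2, a matrix-associated growth factor, was at 35.3 against 95.1 CPM in tag 2 and at 21.7 against 51.6 CPM in tag 4. Vegfd had ratios of 0.522 and 0.592 in tags 2 and 4, and Inhba had ratios of 0.489 and 0.658. Pdgfa, called lower at 0.629 over all cells, had ratios of 0.827 (0.594 to 1.13) and 0.781 (0.651 to 0.933).

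Complement and acute-phase genes gave calls both ways, with 3 of 13 higher and 2 lower, against 7.21% and 4.62% over all genes tested. Their median log2 ratio was 0.67 in tag 2 and 0.53 in tag 4, where 11 were above 1, but -0.29 in tag 1, where their summed level had a ratio of 0.966 (0.917 to 1.02). Serpina3g, a protease inhibitor, was at 127 against 36.7 CPM in tag 2 and at 181 against 80.6 CPM in tag 4, ratios of 3.47 (2.74 to 4.37) and 2.25 (2.03 to 2.49). Cp, the copper carrier ceruloplasmin, was at 459 against 242 CPM in tag 2 and at 881 against 516 CPM in tag 4. Lcn2 (lipocalin 2) had smaller ratios within tags, of 1.33 and 1.28 in tags 2 and 4, than the 1.97 over all cells. Cfb (complement factor B) and Hp (haptoglobin) were lower, at 2.37 against 19.7 CPM and 6.01 against 15.8 CPM over all cells. Their ratios were 0.275 (0.0543 to 0.862) and 0.449 (0.232 to 0.801) in tag 4, and in tag 2 the intervals of both held 1. Clu, itself an inhibitor of complement, was left out of these counts because it chose the cells.

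Among 17 proteases and protease inhibitors tested, 3 proteases and 1 inhibitor were higher, and 1 protease and 3 inhibitors were lower, which is 4 of 17 either way against 7.21% and 4.62% over all genes tested. Mmp3 (stromelysin 1) was at 723 against 446 CPM in tag 2 and 1301 against 733 CPM in tag 4, Mmp19 had a ratio of 1.82 in either tag, and Adamts4 had ratios of 1.07 and 1.28. Timp1, an inhibitor of matrix metalloproteinases, was at 1428 against 2118 CPM in tag 2 and at 1136 against 2084 CPM in tag 4, and Timp3 had ratios of 0.702 and 0.578. The higher inhibitor was Serpine2, an inhibitor of thrombin, at 426 against 197 CPM in tag 2 and 395 against 238 CPM in tag 4, and the lower protease was the aggrecanase Adamts5, at 18.2 against 38.1 CPM and 15.5 against 44.5 CPM.

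Of 21 matrix genes tested, 3 were higher, 3 lower and 15 neither, against 7.21% higher and 4.62% lower over all genes tested. Lox, the enzyme that cross-links collagen and elastin, was at 135 against 247 CPM in tag 2 and 88.8 against 201 CPM in tag 4, and Col8a1 had ratios of 0.527 and 0.667. Sparc was lower by rule, with ratios of 0.808 and 0.819 within these tags. Spp1 (osteopontin), the most abundant gene of the list and a marker of synthetic and osteogenic VSMCs, was at 11385 against 6688 CPM over all cells, yet at 9918 against 8997 CPM within tag 4. Col6a1 and the matricellular Thbs2 were higher, with ratios of 1.62 and 1.84 in tag 2 and 1.48 and 1.67 in tag 4.

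The 4 lists of genes next to the score genes in their pathways (relatives and receptors, ERK feedback, imprinted genes and NF-kB targets) gave at most 1 call each, which in lists this small is near the 7.21% higher and 4.62% lower over all genes tested. None of 6 tested relatives and receptors was called. Met, the receptor of Hgf, was at 9.63 against 18.9 CPM in tag 2 and 11.7 against 16.4 CPM in tag 4, and the ETS factor Etv6 had ratios of 1.58 and 1.48 in tags 2 and 4. Of 9 feedback genes of ERK signalling, Spry4 alone was called, at 22.5 against 8.09 CPM in tag 2 and 15.8 against 7.69 CPM in tag 4. Of 10 imprinted genes tested besides Peg10, only Dlk1, a Notch-related protein, was called higher, with ratios of 2.25 and 1.75. Over all cells its ratio was 1.52, and it fell short of 1.5 in 7 of 10 other settings, down to 1.25 with a score without Clu. Of 11 NF-kB target genes only Birc3, an inhibitor of apoptosis, was higher, with ratios of 1.37 and 1.40. Over all cells its ratio was 1.67, and in cells with 1 tag alone it fell short of 1.5, at 1.48. The median log2 ratio of the 11 genes was 0.42 in tag 2 and 0.37 in tag 4. Outside these 4 lists, 4 of 9 stress and immediate-early genes (Ddit4, Egr1, Ier2 and Jun) were higher and 1 (Ddit3) was lower. The shares over all genes tested were 7.21% and 4.62%. The median log2 ratio of the 9 genes was 0.46 in tag 4. The medians of all tested genes were 0.02 and 0.03 in tags 2 and 4.

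Dividing cells were fewer, or their genes lower, among the Clu Csf3 Hgf cells, which summed levels cannot tell apart. None of 13 cell-cycle genes was higher and 4 (Cdk1, Pclaf, Tyms and Ube2c) were lower, against 7.21% and 4.62% over all genes tested. These calls lay near the limit, with ratios of 0.662, 0.603, 0.664 and 0.638 over all cells, and all 4 were lost with the top 20% of cells by score, at 0.793, 0.738, 0.733 and 0.782. All 13 had a ratio under 1 in tag 4, and their summed level was 752 against 1289 CPM in tag 2 and 910 against 1450 CPM in tag 4, ratios of 0.583 (0.539 to 0.631) and 0.628 (0.604 to 0.652). The 10 genes tested for senescence and cell cycle arrest gave no call in either direction. Among them Cdkn1a (p21) had ratios of 1.05 and 0.996 in tags 2 and 4, and Cdkn2a, which encodes p16 and p19Arf, 1.27 and 1.12.

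The summed level of the interferon response genes was lower over all cells, within tags 1 to 4 and without a tag, but by very different factors. It was 408 CPM in the Clu Csf3 Hgf cells and 1847 CPM in the others, a ratio of 0.221, and 7 of the 13 genes tested were called lower, against 4.62% over all genes tested. Tag 1, which held few Clu Csf3 Hgf cells, carried 5602 CPM of these genes in its other cells, against 376 CPM in those of tag 4. Within tag 4 the ratio was 0.845 (0.790 to 0.902) and within tag 2 it was 0.705 (0.623 to 0.796), while it was 0.343 (0.321 to 0.365) in tag 1, 0.341 among the 11 cells of tag 3 and 0.477 (0.450 to 0.506) without a tag. The value over all cells was thus below that of each of these classes. Ly6a, which encodes the stem-cell antigen Sca1 and is a marker of modulated VSMCs, had a ratio of 0.178 over all cells and of 0.995 (0.877 to 1.13) within tag 4. Klf4 and Lgals3, also linked to VSMC modulation, were lower by the rule with ratios of 0.664 and 0.651 over all cells and of 0.777 and 0.710 in tag 4. Both calls were lost with the top 20% of cells (0.671 and 0.743), with thinned scores (0.740 and 0.768) and with at least 5000 UMIs per cell (0.683 and 0.671). Runx2, an osteogenic factor, had a ratio of 1.26 in tag 4.

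**Figure D4:**
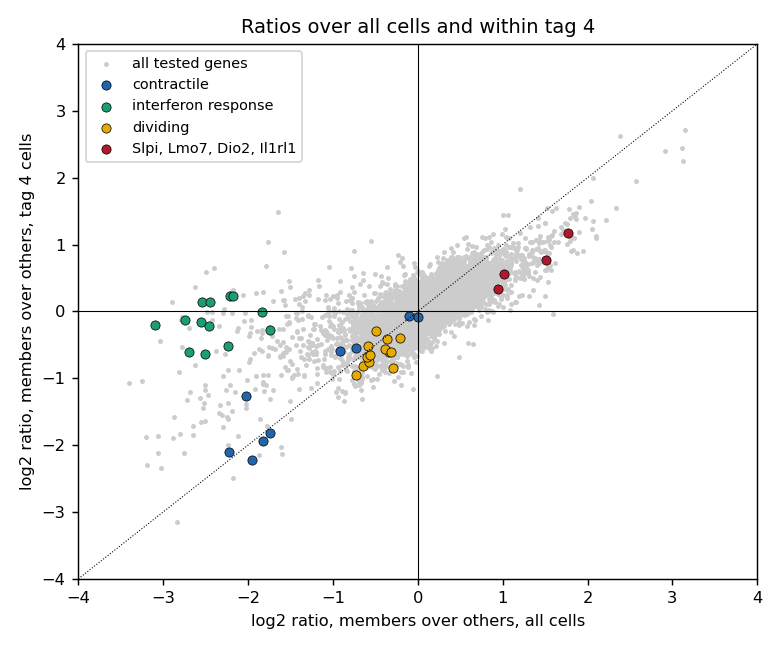
Log2 ratio of Clu Csf3 Hgf cells to other cells over all cells (x axis) and within tag 4 (y axis) for the 8852 genes tested, with 4 gene lists coloured; the dotted line marks equal values. Interferon response genes lie far left but near 0 within tag 4, while Acta2, Tagln and other contractile genes are low on both axes.

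Among mechanosensitive channels, Piezo1, the channel that the siRNA targeted, was at 79.2 against 90.4 CPM in tag 2 and at 86.5 CPM in both sets of tag 4. In the other cells of tags 1 and 3 it was at 71.4 and 109 CPM. As the labels do not pair tags with cultures, these levels do not check the knockdown. Of 5 genes tested on this list, 1 was higher and 1 lower. In a list this small that is near the 7.21% higher and 4.62% lower over all genes tested. Pkd2 (polycystin 2) was the gene called higher, at 111 against 67.6 CPM in tag 2 and 115 against 80.6 CPM in tag 4. Piezo2 was called lower, with ratios of 0.491 over all cells, 0.944 (0.580 to 1.47) in tag 2 and 0.633 (0.443 to 0.885) in tag 4.

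Of the 12 genes with the highest called ratios, 9 had under 10 CPM in the other cells and were tested only through their level in the Clu Csf3 Hgf cells, so their low abundance and high ratios follow in part from the filter. Gpr83, a G-protein-coupled receptor, had a ratio of 6.57 (4.25 to 10.3) in tag 4 and 4.67 (1.92 to 11.1) in tag 2, at 17.9 against 2.72 CPM and 11.8 against 2.52 CPM. C1qtnf7, a secreted C1q and TNF-related protein, was at 72.1 against 15.1 CPM in tag 4 and 16.0 against 3.60 CPM in tag 2. Col25a1, a membrane collagen, was at 21.4 against 3.92 CPM in tag 4. Igfbp5, which binds insulin-like growth factors, was at 55.1 against 14.3 CPM in tag 4 but at 34.2 against 33.6 CPM in tag 2. Agtr2, the type 2 receptor of angiotensin II, was at 7.04 against 2.72 CPM in tag 4 and 13.9 against 5.39 CPM in tag 2. The others of the 12 highest were the glutamate receptor subunit Gria1, the serotonin receptor Htr2c, the integrin ligand Edil3, the phosphoinositide phosphatase Inpp4b, the transporter-like Slc22a23, Ralyl and Mctp1, with ratios between 3.92 and 5.22 over all cells. The most abundant of the 12 in the Clu Csf3 Hgf cells was Slc22a23 at 58.8 CPM. Over all cells, the ratio of Col25a1 went from 8.68 to 4.59 and that of Igfbp5 from 5.94 to 3.18 with thinned scores. The ratio of Ralyl went from 5.04 to 3.32 with a score without Clu.

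Cryab, the small heat shock protein αB-crystallin, was the most abundant of the 12 lowest genes, at 373 against 985 CPM in tag 2 and 176 against 657 CPM in tag 4, ratios of 0.379 (0.339 to 0.422) and 0.268 (0.246 to 0.291). Prss23, a serine protease, was at 32.1 against 92.2 CPM and 16.7 against 61.2 CPM. Edn1, which encodes the vasoconstrictor endothelin 1, was at 0.586 against 5.20 CPM in tag 4. The homeobox genes Hoxc6 and Hoxc8, the ligand Wnt2, Cfb, Ifi27l2a, Slfn5, Lce1g, Pnp2 and Gm41724 made up the rest. These 9 genes and Edn1 had 7.55 CPM or less in the Clu Csf3 Hgf cells and were tested only through their level in the other cells.

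Genes that were higher spanned more of the genome. Their median span was 99.04 kb, against 28.5 kb for all genes tested and 20.6 kb for the lower genes, and 49.7% of them exceeded 100 kb against 16.7% of all. The share of genes called higher was 3.71% below 10 kb, 16.5% between 100 and 300 kb and 39.9% above 300 kb, and within tag 4 the median log2 ratio went from -0.08 to 0.42 between the shortest and the longest class. The nuclear RNAs Malat1 and Neat1 had ratios of 1.39 and 1.49 in tag 4 and of 1.39 and 1.59 in tag 2. The part of nuclear RNA or unspliced reads in the calls was not tested.

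**Figure D5:**
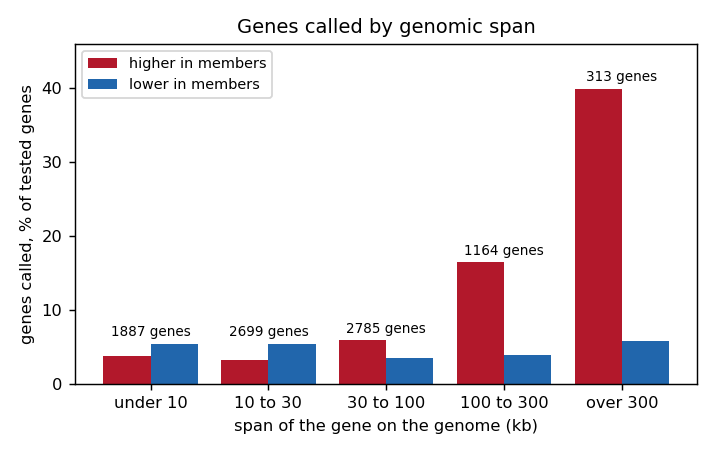
Genes called higher (red) or lower (blue) in Clu Csf3 Hgf cells as a percentage of the tested genes in each class of genomic span (kb), with the number of genes above. The higher calls reach 39.9% above 300 kb, while the lower calls stay between 3.48% and 5.75%.

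Among the markers of other cell types, those of fibroblasts had the highest summed level. The 6 endothelial markers summed to 5.73 CPM in the Clu Csf3 Hgf cells and 4.96 CPM in the others, with Pecam1 the most abundant in the class and Tie1 without a UMI. The 8 macrophage markers summed to 30.03 against 18.87 CPM, of which Cd14 alone gave 25.2 against 10.1 CPM, while Ptprc, C1qa and Tyrobp had no UMI, which allows up to 0.273 CPM each. Fibroblast markers summed to 100 against 67.6 CPM, led by Pdgfra at 65.4 against 47.9 CPM, with Cd34 higher at 18.3 against 7.18 CPM. The ratio of the fibroblast sums was 1.63 (1.24 to 2.12) in tag 2 and 1.52 (1.34 to 1.71) in tag 4. Pericyte markers summed to 20.8 against 7.72 CPM and Schwann cell markers to 16.7 against 6.64 CPM, nearly all from Rgs5 and S100b, with Higd1b and Sox10 without a UMI. The sums were 25.67 against 10.97 CPM and 23.5 against 10.8 CPM in tag 2, with ratios of 2.34 (1.40 to 3.81) and 2.18 (1.27 to 3.61), and 14.7 against 13.1 CPM and 15.2 against 11.8 CPM in tag 4. Without a tag the ratios were 2.40 and 2.31. Epithelial and mesothelial markers were lower, at 23.3 against 65.1 CPM, led by Sbsn. Their part in the results was not tested.

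The class overlapped in part with cells high in Slpi, Lmo7, Dio2 and Il1rl1, which led another cluster of the library. Of the Clu Csf3 Hgf cells, 332 (25.5%) were also among the 1304 cells highest for these 4 genes, 21 (1.61%) among the 1304 highest for the contractile list and 101 (7.75%) among the 1304 highest for the cell-cycle list. Within tag 4 the shares were 41.3%, 1.14% and 8.55% of the Clu Csf3 Hgf cells, where 29.8%, 5.75% and 13.7% of all tag 4 cells were in these sets. Each of the 4 genes was called higher, against 7.21% of all genes tested. Dio2, which activates thyroid hormone, was at 140 against 62.0 CPM in tag 4 and 66.3 against 41.4 CPM in tag 2. Il1rl1, the receptor of interleukin 33, was at 648 against 512 CPM in tag 4 and 242 against 236 CPM in tag 2. The protease inhibitor Slpi and the actin-associated Lmo7 had ratios of 1.48 and 1.70 in tag 4 and of 1.16 and 2.42 in tag 2.

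In a clustering of all cells into 13 clusters, 806 Clu Csf3 Hgf cells (61.8%) fell into cluster 0, where they were 33.1% of 2435 cells. The leading genes of that cluster were Nxph1, Clu, Csf3, Peg10 and Sorcs1, and 5 of the 6 score genes were among its first 10. A further 234 (17.9%) lay in cluster 1, led by cell-cycle genes such as Mki67 and Top2a, where they were 11.8% of 1989 cells. Another 142 (10.9%) lay in cluster 9, led by Lmo7, Klra4, Platr16 and Slpi, where they were 32.3% of the cells. Clusters 6 and 7, whose leading genes include Ccne2 and Plk1 of the cell cycle, held none in 708 and 570 cells. Cluster 2, led by interferon response genes, held none of them in 1942 cells, which allows a share of up to 0.154%, and cluster 5, led by Cnn1, Gabrb1 and Acta2, held 17. The Clu Csf3 Hgf cells were thus spread over several clusters, and most cells of cluster 0 lay outside the class.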

How the data were processed

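VSMCs of 4 hashed cultures were sequenced as 1 droplet library. Per the file headers, the deposited UMI counts came from Cell Ranger 4. They were neither normalized nor filtered by the authors and covered 32285 genes and 4 hashtags over 2472397 barcodes. No source used here names the genome build, and gene spans were looked up by Ensembl identifier in GENCODE vM21 (GRCm38). A cell had at least 2218 gene UMIs and 200 genes. The submitters' processing notes also name Seurat.

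Tags were assigned with HTODemux of Seurat 5.3.0 in R 4.3.3 at the 0.99 quantile, and clusters used 2000 variable genes, 30 components, 20 neighbours and a resolution of 0.8. Scrublet in scanpy 1.11.5 (expected rate 0.1) marked 3058 cells as doublets (23.4%), more than the rate given to it, and none was removed outside the alternatives. Ratios and intervals were computed with SciPy 1.17.1 and tried on simulated Poisson counts, the model that the intervals assume. This checked the computation and not whether the intervals hold for these cells. UMIs per cell were thinned without replacement. Promoter matches used regular expressions, with the first entry of each gene.

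The genes named are the 6 score genes, the up to 4 largest ratios and the most abundant gene of each of 23 fixed lists, and the 12 highest and 12 lowest called genes. The called genes of the secreted, cell-cycle and stress lists (a few counted genes are not reported here by name), the members of other lists given beside them (Cdkn1a, Cdkn2a, Myh11, Runx2), and Xist, Ddx3y, Malat1 and Neat1 were added after their values were seen. The score genes and lists were chosen with earlier results of these data known. No test was made, because there is 1 library and measured values chose the cells. Other limits of the score, depth and doublet filters, tag rules and expression filters were tried as alternatives. The array, imaging and force data of the study were not analysed here.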

Additional observations from a re-analysis of the deposited data

Results flagged for a closer look

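Among the genes named by rule with 10 CPM or more, 4 had ratios of Clu Csf3 Hgf cells to other cells on opposite sides of 1 in 2 tags, with both counting intervals clear of 1. Ccl2 had a ratio of 0.782 in tag 1 against 1.24 in tag 2 and 1.15 in tag 4. Saa3, an acute-phase serum amyloid, had 0.817 in tag 1 against 1.88 in tag 2 and 1.39 in tag 4. Tpm1 had 1.12 in tag 1 against 0.760 in tag 2 and 0.941 in tag 4, and Ccnd1 (cyclin D1) had 1.30 in tag 1 against 0.839 in tag 4. In each case tag 1 stood apart, and its 49 Clu Csf3 Hgf cells were those of which Scrublet marked 59.2%. These differences between tags were not tested, as each tag is 1 sample, and the intervals cover counting error only.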

How the results depend on the processing

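The order of the tags, with tags 4 and 2 above the share among all cells with 1 tag and tags 1 and 3 below it, was the same under every alternative run. The relative share of tag 4 was 2.62 with scores from cells thinned to 5000 UMIs and 2.72 with HTODemux at the 0.95 quantile, that of tag 3 was 0.194 with the top 20% of cells, and that of tag 1 was 0.114 without Scrublet doublets. Calling a tag where it had at least 3 times the UMIs of the next gave 0.447, 4.30, 0.188 and 5.87 for tags 1 to 4. The contractile ratio stayed below 1 throughout: 0.595 with the top 5% of cells, 0.671 with the top 20%, 0.660 with thinned scores, 0.585 without doublets, 0.653 with a score without Clu, 0.603 without the 25% of cells highest by cell-cycle score and 0.616 as a mean over cells. Chosen after seeing the data, it was 0.697 in tag 4, 0.539 in tag 2 and 0.644 in cells with 1 tag.

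The 638 higher and 409 lower genes became 317 and 185 at a minimum of 50 CPM, which tests fewer genes, and 1057 and 1281 with all genes of 20 UMIs or more, which tests more. Tag 2 alone gave 953 and 752 (343 and 201 shared with the calls over all cells) and tag 4 alone 457 and 331 (269 and 147 shared). With directions taken from tags 2 and 4 alone, without the condition on tag 1, there were 667 and 437. Among cells with 1 tag alone, leaving out the untagged cells, there were 765 and 507. Without doublets there were 829 and 547, of which 608 and 359 were shared. A score without Clu kept 905 of the 1304 cells (69.4%). The thinned score also left out cells under 5000 UMIs, so only 1047 of the 1304 could be thinned. It kept 800 of the 1304, which were 75.4% of its own 1061 cells. Of 1368 values of 114 named genes under these settings, 609 left the interval of the reported ratio and none of the called genes changed side. Of the 77 called, 9 fell short of 1.5-fold in at least 1 of 10 settings that keep all tags: Birc3, Cdk1, Dlk1, Fgf7, Klf4, Lgals3, Pclaf, Tyms and Ube2c. With the top 20% of cells 8 did so, with thinned scores 6, with a score without Clu 4 and with at least 5000 UMIs per cell 3. Without Scrublet doublets 18 moved by more than 1.5 times, among them Cryab from 0.135 to 0.0598, Prss23 from 0.109 to 0.0379, Ccl5 from 0.199 to 0.0669, Ly6a from 0.178 to 0.0970 and Edn1 from 0.139 to 0.0309; the cause was not tested. With at least 5000 UMIs per cell the contractile ratio was 0.631, with 610 and 395 genes, and without cells above 10% mitochondrial UMIs it was 0.629, with 637 and 407 genes. No paired analysis was possible because there is 1 library without replicates, and no replicate could be left out. Low counts limit the rarest genes named, such as Edn1 and Hoxc8, to wide intervals.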
